A study of Mus musculus with 10 samples.

Results

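The Argonaute and TNRC6 genes encode the protein core of the miRNA silencing complex, and their mRNA levels were followed here across wild-type, DGCR8 KO and DDX6 KO mouse embryonic stem cells. The members were chosen by name, with earlier results of these data known. They are the 4 Argonaute genes Ago1, Ago2, Ago3 and Ago4 and the 3 TNRC6 genes Tnrc6a, Tnrc6b and Tnrc6c, which makes 7 of the 51467 genes in the count table. Each of the 7 was found in the table through its gene identifier.

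An Argonaute protein holds the mature miRNA and pairs its seed, the bases near the 5′ end, with a site that usually lies in the 3′ UTR of an mRNA. A TNRC6 protein (also called GW182) binds the Argonaute and recruits the poly(A)-binding protein and the PAN2-PAN3 and CCR4-NOT deadenylases, which shorten the poly(A) tail. CCR4-NOT in turn binds DDX6, an RNA helicase linked to translational repression and decapping. DGCR8 acts far upstream, as the partner of the nuclease Drosha in cutting miRNA hairpins out of primary transcripts, so that cells without it lack canonical miRNAs. In embryonic stem cells a large part of the miRNAs carries the seed of the ESCC family, to which the miR-290 cluster belongs.

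The study profiled poly(A)-site-proximal mRNA ends with QuantSeq in 10 libraries. All cells were grown in Knockout DMEM with 15% fetal bovine serum, LIF and the 2i inhibitors PD0325901 and CHIR99021. WT (the V6.5 line) and DGCR8 KO had 3 libraries each, and DDX6 KO, made from V6.5 with CRISPR-Cas9, had 4. The DDX6 KO group joined 2 clones with 2 libraries each, 1 clone with a single-nucleotide insertion and 1 with a large deletion, and which of these is clone 1 is not given in the sources used here. The labels state CRISPR for the knockouts in general, whereas the methods list DGCR8 KO as a line the laboratory already had. It is taken here as 1 line, so that its other properties and the missing DGCR8 cannot be told apart. Nothing states that libraries of a genotype came from separate cultures, so p-values measure the spread between these libraries, which may be technical.

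Library totals ran from 2131156 to 4745083 gene counts, at which 3 counts, taken as the floor of detection, corresponded to 0.632 to 1.41 CPM (a gene's count scaled to a common library total) before TMM scaling. The floor covers counting error only, whereas each SD given below is the spread between libraries and each SE comes from the limma fit. All 10 embryonic stem cell markers, among them Pou5f1 and Nanog, were tested and summed to between 5080 and 5654 CPM in every library, while 1 of 7 feeder fibroblast markers and 0 of 6 primitive endoderm markers reached the level needed for a test. The steady sum of the stem cell markers held shifts of single markers in both directions. Nanog stood at 511 to 604 CPM in WT, 398 to 534 in DGCR8 KO and 795 to 922 in DDX6 KO. Klf2 stood at 533 to 707 CPM in WT and 1023 to 1321 in DGCR8 KO. Tfcp2l1 stood at 807 to 1238 CPM in WT and 662 to 818 in DDX6 KO. The feeder markers Postn, Dcn and Lum stayed at 3 counts or fewer, and the feeder list summed to 3.41 to 4.32 CPM in WT, 2.44 to 3.39 in DGCR8 KO and 5.28 to 9.52 in DDX6 KO. Primed and early differentiated markers summed to 92.1 to 103 CPM in WT, 82.3 to 90.3 in DGCR8 KO and 98.4 to 151 in DDX6 KO, with Fgf5 at or below the floor in every library. Within that list Sox1 stood at 26.4 to 40.9 CPM in WT and 68.9 to 115 in DDX6 KO, whereas Otx2 stood at 30.1 to 38.8 in WT and 4.76 to 9.85 in DDX6 KO. The part of these markers in the results was not tested. In cell populations of this kind a lower share of expressing cells and less RNA per cell cannot be told apart. Dgcr8 fell to 20.6% of its WT level in the DGCR8 KO libraries. Ddx6 fell to 26.4% of WT in clone 1 and to 6.02% in clone 2, so each library matched its label.

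The sequences most relevant to these genes are the seeds that could pair with their own 3′ UTRs. The mature miRNAs are shown 5′ to 3′ from RefSeq (GRCm38.p6), with the seed, bases 2 to 8, in capitals. The first 4 share the ESCC seed, and the last 2 stand for the seeds with the densest matches in Tnrc6a and Ago1.
miR-294-3p: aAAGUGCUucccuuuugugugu
miR-295-3p: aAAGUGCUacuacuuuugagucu
miR-291a-3p: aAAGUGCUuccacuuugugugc
miR-302b-3p: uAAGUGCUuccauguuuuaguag
miR-30c-5p: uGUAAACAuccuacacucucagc
miR-130a-3p: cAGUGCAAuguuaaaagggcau

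A match to the ESCC seed was either AGCACTT or the overlapping GCACTTA, counted once where both occurred together as an 8-base site. It was sought on the transcript strand of the 3′ UTR of the annotated principal coding transcript. The motif of miR-17-5p shares 6 letters with both. The members differed in whether they held the ESCC motif. Ago3 had 3 matches, Ago1 and Tnrc6b had 2 each, Tnrc6c had 1, and Ago2, Ago4 and Tnrc6a had 0. The matches in the tested members are printed as 30-base windows of the GRCm38 transcript with the site in capitals; the coordinates are those of the capitals.
Ago1, chr4:126438818-126438824, minus strand: aaggcactatgGCACTTAgctctgaggtga
Ago1, chr4:126435304-126435310, minus strand: tgtatgatgttGCACTTAgcagccatgtgg
Ago3, chr4:126341692-126341698, minus strand: caggcggtgtgAGCACTTggagcccagcca
Ago3, chr4:126338311-126338318, minus strand: actttaattgcAGCACTTAagaggcagagg
Ago3, chr4:126335515-126335522, minus strand: caaatgttaagAGCACTTAttgtgctgtca
Tnrc6b, chr15:80931328-80931334, plus strand: gggaacatgctAGCACTTgtgtgatatccc
Tnrc6b, chr15:80935718-80935724, plus strand: ccttttatcccAGCACTTgagaggcagaag
Tnrc6c, chr11:117762134-117762140, plus strand: gcggccggccgAGCACTTggacgtggtggt

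The number of matches has to be read against the length of the UTR. Among tested genes with a 3′ UTR within 25% of the member's length, an ESCC match was held by 50.1% of 945 for Ago1 (4491 bases), 92.6% of 27 for Ago3 (12742 bases), 85.7% of 42 for Tnrc6b (11609 bases) and 34.6% of 1725 for Tnrc6c (2588 bases). The same share was 77.8% of 63 for Ago2 (11064 bases), 31.6% of 1821 for Tnrc6a (2345 bases) and 42.2% of 1300 for Ago4 (3682 bases). These shares count UTRs with any match. As many matches as the member itself were held by 16.6% for Ago1, 44.4% for Ago3 and 61.9% for Tnrc6b. Only 10 of 10959 annotated UTRs of tested genes were longer than that of Ago3, 13 were longer than that of Tnrc6b and 17 longer than that of Ago2.

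Matches to 9 seeds were counted in the 7 members, a list of miRNAs drawn up after the counts had been seen. In 2 of the 63 combinations, fewer than 1% of UTRs of similar length held as many matches. Ago3, Tnrc6b and Ago2 had only 27, 42 and 63 UTRs of similar length. For these members a single such UTR with as many matches exceeds 1%, so the count says little about them. Tnrc6a held 4 matches to the miR-30 seed (TGTTTAC or GTTTACA), a number reached by 0.165% of the 1821 UTRs of similar length. Ago1 held 4 matches to the miR-130 seed (TTGCACT or TGCACTA), reached by 0.529% of 945. Other members held as many or more of these matches, in longer UTRs. Ago3 held 6 to the miR-30 seed and 4 to the miR-130 seed, each number reached by 3.70% of 27. Ago2 held 4 to the miR-30 seed, reached by 11.1% of 63. The sets of Tnrc6a and Ago1 are shown in the same way.
Tnrc6a, chr7:123193385-123193391, plus strand: tccagtgtagaTGTTTACtcaagggtgttc
Tnrc6a, chr7:123193673-123193680, plus strand: gtgaaccttctTGTTTACAgatttttttgt
Tnrc6a, chr7:123193712-123193718, plus strand: gagaaaaaaaaTGTTTACtcttccatcatt
Tnrc6a, chr7:123194472-123194479, plus strand: tggcttttaacTGTTTACAataggatgtga
Ago1, chr4:126438532-126438538, minus strand: tccattgacatTTGCACTttcagacgtgac
Ago1, chr4:126436822-126436828, minus strand: ccaggccagtgTGCACTAtgtagcaagacc
Ago1, chr4:126436308-126436314, minus strand: ttagccctgggTTGCACTgtcctcaagctt
Ago1, chr4:126435306-126435312, minus strand: ggtgtatgatgTTGCACTtagcagccatgt

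The last Ago1 match overlaps its second ESCC match. A match is a description of these letters and no evidence of binding, and miRNAs were not measured in these libraries.

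**Figure D1:**
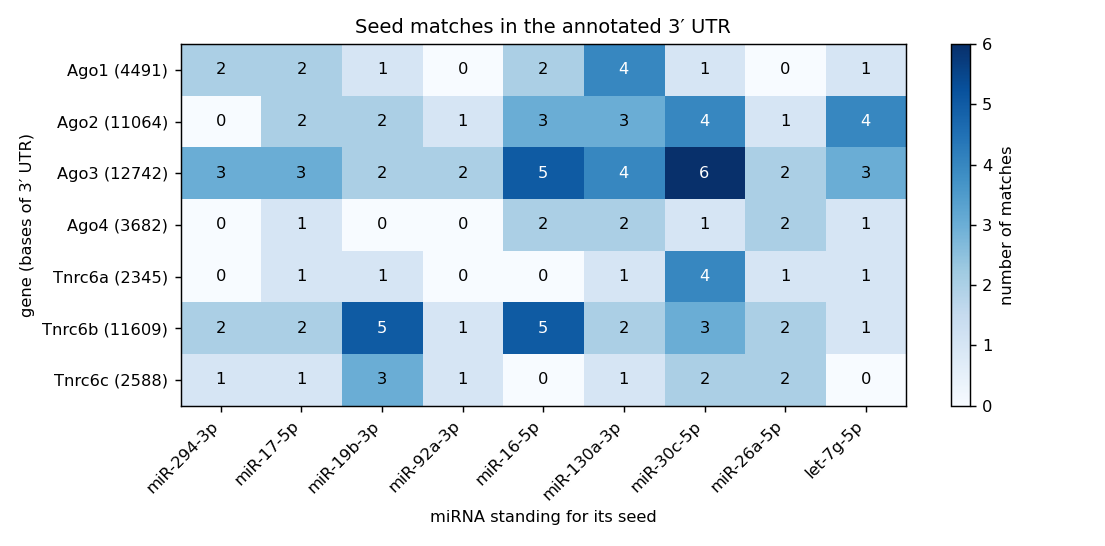
Number of matches to each of 9 seeds in the annotated 3′ UTR of each member (rows, with the length of the 3′ UTR in bases; columns, the miRNA that stands for the seed). Tnrc6a shows 4 matches for miR-30c-5p and 0 for miR-294-3p, and Ago1 shows 4 for miR-130a-3p.

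In WT cells the members covered a wide range of levels. QuantSeq reads each transcript at its 3′ end, so CPM counts transcript ends and was not divided by transcript length. Ago2, the Argonaute with slicer activity, was highest at 515 ± 50.2 CPM (SD, n = 3). It was followed by Tnrc6a at 123 ± 15.5, Ago1 at 76.4 ± 7.98, Tnrc6c at 64.3 ± 0.666, Tnrc6b at 57.0 ± 5.68 and Ago3 at 27.6 ± 4.54 CPM, and the WT libraries of neighbours in this order did not overlap. Ago4 stood at the floor, with 4, 4 and 3 counts in WT, 2, 5 and 3 in DGCR8 KO and 3, 4, 5 and 5 in DDX6 KO. It was the only member that failed the minimum of 3 CPM in at least 3 libraries, so 6 of the 7 members were tested, and a difference in Ago4 was not detectable at this depth.

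**Figure D2:**
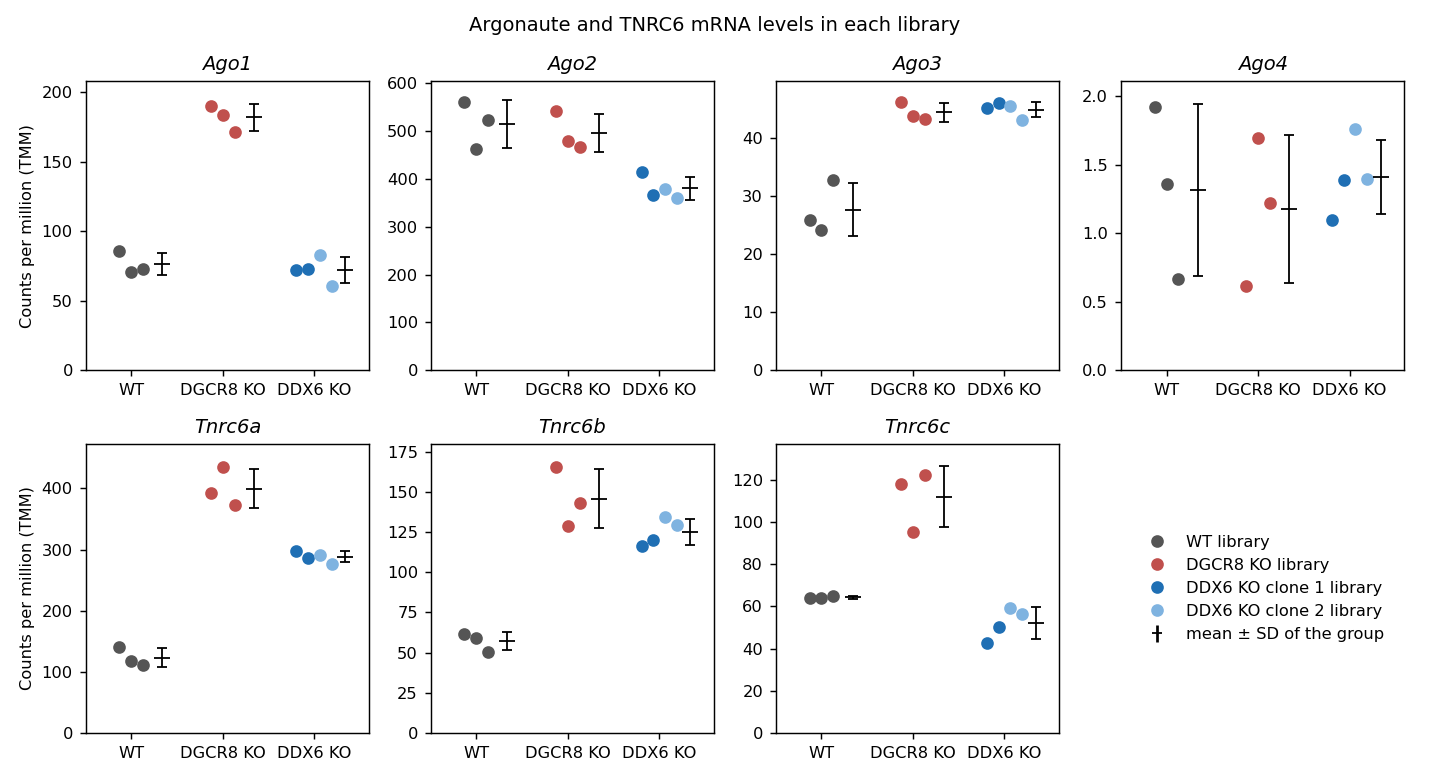
Level of each member in every library, in TMM-scaled CPM on a linear axis from 0 that differs between panels, with the group mean and SD beside the points. Tnrc6a and Tnrc6b were above WT in every knockout library, Ago1 and Tnrc6c in the DGCR8 KO libraries, and Ago4 stayed under 2 CPM throughout.

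The comparison of DGCR8 KO with WT asks how the genes of the silencing complex stand in cells that cannot make canonical miRNAs. Of the 6 tested members 5 rose and 0 fell, at an adjusted p-value under 0.05 over all 11683 genes tested (limma). Of all tested genes, 19.9% passed in the higher direction. The 3 TNRC6 genes rose together with Ago1 and Ago3, and 3 members (Tnrc6a, Tnrc6b and Ago1) rose by more than 1 on the log2 scale, which 8.93% of all genes did.

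The median log2 change of the tested members was 1.03, against 0.004 over all genes. The largest increase was that of Tnrc6a (ENSMUSG00000052707, chromosome 7 from 123124181 to 123195296). It had 140, 118 and 111 CPM in the WT libraries and 393, 434 and 372 CPM in the DGCR8 KO libraries. The groups did not overlap, and the mean was 3.26 times that of WT. This was a log2 change of 1.72 (SE 0.11, limma adjusted p = 2.15e-09).

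Tnrc6b (ENSMUSG00000047888, chromosome 15 from 80711319 to 80941086), the second TNRC6 paralog, had 61.5, 58.9 and 50.6 CPM in WT and 166, 129 and 143 CPM in DGCR8 KO. Every DGCR8 KO library was above every WT library, with a log2 change of 1.37 (SE 0.13, adjusted p = 3.91e-07).

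Tnrc6c (ENSMUSG00000025571, chromosome 11 from 117654289 to 117763439) was nearly the same in all WT libraries, at 63.9, 64.1 and 65.1 CPM, and reached 118, 95.4 and 122 CPM in DGCR8 KO. The groups did not overlap. The log2 change of 0.78 (SE 0.14, adjusted p = 2.34e-04) was the smallest among the TNRC6 genes.

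Among the Argonautes, Ago1 (ENSMUSG00000041530, chromosome 4 from 126435012 to 126468583) had 85.5, 70.5 and 73.1 CPM in WT and 190, 184 and 171 CPM in DGCR8 KO. The lowest DGCR8 KO library was thus well above the highest WT library, and the log2 change was 1.27 (SE 0.13, adjusted p = 4.97e-07).

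Ago3 (ENSMUSG00000028842, chromosome 4 from 126332732 to 126429556), the next gene on the same strand, had 25.9, 24.2 and 32.8 CPM in WT and 46.2, 43.8 and 43.2 CPM in DGCR8 KO. The groups were apart, with more spread in WT, where the values rested on 54 to 147 counts. The fitted log2 change was 0.66 (SE 0.16, adjusted p = 0.00291).

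Ago2 (ENSMUSG00000036698, chromosome 15 from 73095844 to 73184840) had 561, 462 and 523 CPM in WT and 543, 479 and 466 CPM in DGCR8 KO. Its groups overlapped, and the log2 change of -0.05 (SE 0.10, adjusted p = 0.739) did not pass.

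The spike-in RNAs made up 1.10% to 2.36% of the counts, and their share varied within groups. It ran from 1.20% to 2.31% in WT, from 1.575% to 1.89% in DGCR8 KO and from 1.10% to 2.36% in DDX6 KO. Scaling by the spike-in RNAs moved the median of all genes from 0.004 to -0.147 in this comparison and left 1015 genes passing instead of 4245. Under it Tnrc6a and Tnrc6b still passed, whereas Ago1 (log2 change 1.10, adjusted p = 0.0755), Ago3 (0.54, adjusted p = 0.56) and Tnrc6c (0.63, adjusted p = 0.446) did not, all by limma.

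The comparison of DDX6 KO with WT asks the same in cells where Dgcr8 was not the targeted gene but the helicase recruited downstream is missing. The miRNAs of these cells were not measured here. Tnrc6a and Tnrc6b were again well above WT, Ago3 was also higher and Ago2 was lower. Of the 6 tested members 3 rose, against 17.9% of all genes, and 1 fell, against 16.6%. Tnrc6a and Tnrc6b, thus 2 members, rose by more than 1 on the log2 scale, as did 7.55% of all genes. The median over the tested members was 0.30, against 0.024 over all genes. The WT libraries are shared with the DGCR8 KO comparison, so the 2 comparisons are not independent of each other.

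Tnrc6a had 299 and 286 CPM in the libraries of clone 1 and 291 and 277 CPM in those of clone 2. All 4 values lay between those of WT and those of DGCR8 KO, without overlap on either side, and the log2 change against WT was 1.25 (SE 0.11, limma adjusted p = 1.71e-07).

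Tnrc6b had 116 and 120 CPM in clone 1 and 134 and 130 CPM in clone 2. These values were above every WT library and overlapped the lower end of DGCR8 KO. On the log2 scale the change was 1.16 (SE 0.13, adjusted p = 3.06e-06).

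Tnrc6c was the TNRC6 gene that did not rise. It had 42.5 and 50.4 CPM in clone 1 and 59.5 and 56.3 CPM in clone 2, all below the WT libraries, with a log2 change of -0.31 (SE 0.14, adjusted p = 0.0963), which did not pass.

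Ago3 had 45.1 and 45.9 CPM in clone 1 and 45.4 and 43.1 CPM in clone 2, a narrow band above WT that overlapped DGCR8 KO, and its log2 change was 0.67 (SE 0.15, adjusted p = 0.0019).

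Ago2 had 414 and 367 CPM in clone 1 and 380 and 360 CPM in clone 2, each below the lowest WT library. It was the member that fell, by 0.44 on the log2 scale (SE 0.10, adjusted p = 0.00186), to 73.8% of its WT mean.

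Ago1 had 72.2 and 73.0 CPM in clone 1 and 83.0 and 60.4 CPM in clone 2, a range that overlapped WT. The log2 change of -0.08 (SE 0.13, adjusted p = 0.666) did not pass, and its sign changed with total-count scaling (0.0441) and without the second library of clone 2 (0.0132).

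Under spike-in scaling the calls of Tnrc6a and Tnrc6b held in DDX6 KO and those of Ago3 (0.77, limma adjusted p = 0.329) and Ago2 (-0.37, adjusted p = 0.752) were lost. The median of all genes, 0.024, moved to 0.071 there and to 0.147 under total-count scaling.

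The 2 clones carry different Ddx6 alleles, so each was also set against WT in a fit with a group for each clone. In clone 1, 4 members passed, as did 23.8% of all genes, and in clone 2, 4 members passed, as did 24.6% of all genes. In each clone the members that rose were Tnrc6a, Tnrc6b and Ago3, and the member that fell was Ago2.

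Tnrc6a was higher by 1.27 (SE 0.13) in clone 1 and by 1.23 (SE 0.13) in clone 2, and Tnrc6b by 1.08 (SE 0.15) and 1.23 (SE 0.15), all on the log2 scale. Ddx6 mRNA, in contrast, differed between the clones, by -2.18 (SE 0.19, limma adjusted p = 3.1e-05). Tnrc6c stood at -0.47 (SE 0.17, adjusted p = 0.0507) in clone 1 and at -0.16 (SE 0.16, adjusted p = 0.501) in clone 2, and edgeR's quasi-likelihood test put the clone 1 value past the threshold (adjusted p = 0.0455). The limma test of clone 2 against clone 1 called 0 of the 6 tested members, where it called 0.0428% of all genes. At an unadjusted p under 0.05 it called 0 members and 284 of the 11683 genes, and edgeR called 0 members by either measure, with 6 genes at an adjusted and 273 at an unadjusted p. So few genes passed that 0 of 6 members says little about them. The largest member difference between the clones was that of Tnrc6c, 0.31 (SE 0.18) on the log2 scale.

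Leaving out a library of a clone leaves that clone with 1, which is then assumed to vary like the other groups. Leaving out either library of clone 1 ended the calls of Ago2 and Ago3 in that clone, at log2 changes of -0.49 and -0.31 for Ago2 and of 0.71 and 0.68 for Ago3. Leaving out the second library of clone 2 did so in clone 2, at -0.43 and 0.69, which left 2 members, Tnrc6a and Tnrc6b. The Ago3 changes thus stayed close to those with both libraries (0.69 and 0.65). Without the first library of clone 2 or without WT replicate 2, Ago3 was lost in clone 2 (limma adjusted p = 0.0774 and 0.0519), and without WT replicate 1 or 3 Ago2 was lost in clone 1 (adjusted p = 0.0698 and 0.0657). Total-count scaling also ended the Ago2 call in clone 1 (-0.29, adjusted p = 0.0861). Tnrc6a and Tnrc6b passed in both clones with edgeR's quasi-likelihood test, with total counts and without the expression filter. With the left-out libraries these made 13 alternatives. Over them the log2 change of Tnrc6a ran from 1.19 to 1.39 in clone 1 and from 1.15 to 1.36 in clone 2. That of Tnrc6b ran from 0.97 to 1.19 in clone 1 and from 1.13 to 1.37 in clone 2. Spike-in scaling was not applied to the clone contrasts.

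**Figure D3:**
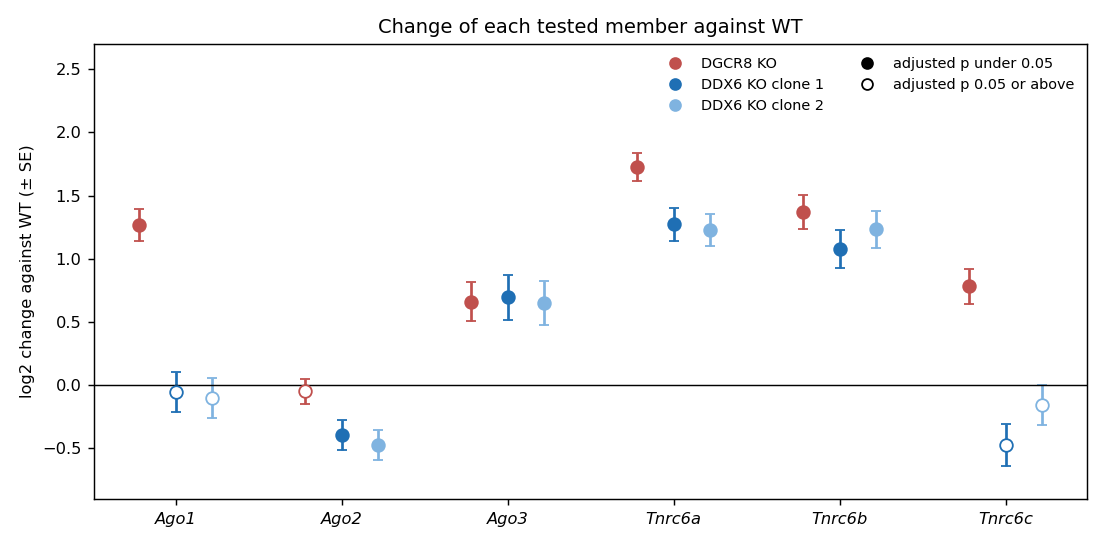
Log2 change of each tested member against WT, with its standard error, in DGCR8 KO and in each DDX6 KO clone; filled points have an adjusted p-value under 0.05. Tnrc6a, Tnrc6b and Ago3 were above 0 in all 3 lines, Ago1 and Tnrc6c passed in DGCR8 KO alone (1.27 and 0.78), and Ago2 passed in the clones alone.

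Whether the knockouts differed was tested directly. DGCR8 KO was higher than DDX6 KO in 4 of the 6 tested members, where 23.0% of all genes were higher, and 2 of them, Ago1 and Tnrc6c, differed by more than 1 on the log2 scale, where 7.77% of all genes did. Ago1 differed by 1.35 (SE 0.12, limma adjusted p = 7.01e-08) and Tnrc6c by 1.09 (SE 0.13, adjusted p = 3.5e-06), and the libraries of the knockouts did not overlap in either gene. Tnrc6a differed by 0.47 (SE 0.10, adjusted p = 6.23e-04) and Ago2 by 0.39 (SE 0.10, adjusted p = 0.00325). The differences of Tnrc6b (0.22, SE 0.11, adjusted p = 0.131) and Ago3 (-0.01, SE 0.14, adjusted p = 0.96) did not pass. Of the 4 calls, that of Ago1 alone held under spike-in scaling (1.12, adjusted p = 0.0318), where the median of all genes moved from 0.002 to -0.203. The call of Ago2 was also lost when clone 2 was left out (0.33, adjusted p = 0.0525).

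The order of the members changed with genotype. In DGCR8 KO the order was Ago2 (496 ± 40.7 CPM, SD, n = 3), Tnrc6a (400 ± 31.6), Ago1 (182 ± 9.64), Tnrc6b (146 ± 18.6), Tnrc6c (112 ± 14.5) and Ago3 (44.4 ± 1.62), with no overlap between neighbours. In DDX6 KO it was Ago2 (380.1 ± 23.8 CPM, SD, n = 4), Tnrc6a (288 ± 9.12), Tnrc6b (125 ± 8.23), Ago1 (72.2 ± 9.24), Tnrc6c (52.2 ± 7.45) and Ago3 (44.9 ± 1.23), and there the libraries of Tnrc6c and Ago3 overlapped.

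Summed over the family, the balance moved from Argonaute to TNRC6 transcripts in both knockouts. The 4 Argonaute genes together had 558 to 675 CPM in WT, 682 to 780 in DGCR8 KO and 465 to 532 in DDX6 KO. The 3 TNRC6 genes had 226 to 266 CPM in WT, 638 to 677 in DGCR8 KO and 457 to 485 in DDX6 KO, so the mean was 2.69 times WT in DGCR8 KO and 1.91 times WT in DDX6 KO.

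The ratio of TNRC6 to Argonaute transcript ends does not depend on how libraries are scaled. In WT it ran from 0.359 to 0.431, with a mean of 0.395. It was 0.868 to 0.935 in the DGCR8 KO libraries, where the mean was 0.910, and 0.860 to 0.995 in those of DDX6 KO, where the mean was 0.936. The ranges of the knockouts overlapped each other, at different totals, and neither overlapped that of WT. These sums are descriptions over members chosen by name and were not tested.

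The make-up within each family differed between the knockouts as well. Ago2 gave 82.8% to 83.2% of the Argonaute transcript ends in WT, 67.6% to 69.6% in DGCR8 KO and 74.5% to 77.8% in DDX6 KO. The mean share of Ago1 was 12.3% in WT, 25.2% in DGCR8 KO and 14.5% in DDX6 KO, and that of Ago3 was 4.46%, 6.14% and 9.02%. Among the TNRC6 genes, the share of Tnrc6c was 26.5% in WT, 17.0% in DGCR8 KO and 11.2% in DDX6 KO, while that of Tnrc6a was 50.2%, 60.8% and 61.9%. In DGCR8 KO the additional Argonaute transcripts were thus mostly those of Ago1, and in DDX6 KO the Ago3 share was higher at a lower total.

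**Figure D4:**
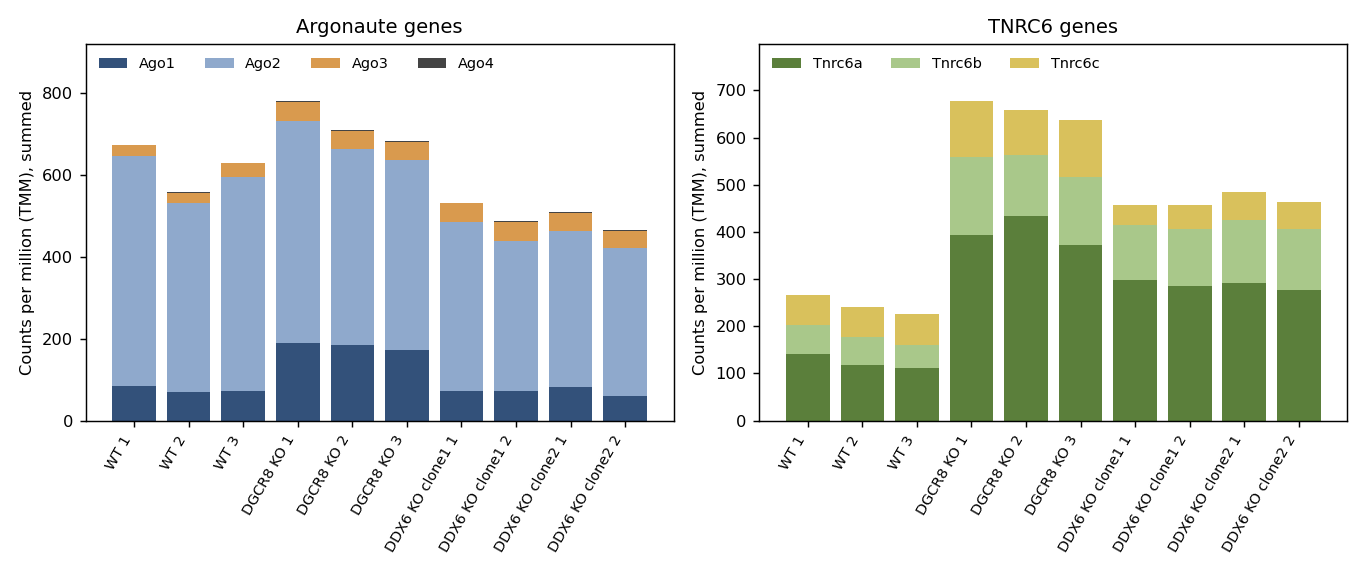
Summed level of the Argonaute genes (left) and of the TNRC6 genes (right) in each library, in TMM-scaled CPM, stacked by gene on axes that start at 0; DDX6 KO libraries are given by clone and number. The TNRC6 stack rises from 226 to 266 CPM in WT to 638 to 677 in DGCR8 KO and 457 to 485 in DDX6 KO.

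Across the 10 libraries the members fell into groups by pattern, which is a description since the libraries share 3 genotypes. The log2 CPM of Tnrc6a and Tnrc6b had a Pearson r of 0.965, and Ago3 followed both, with 0.879 and 0.890. Ago1 and Tnrc6c, the members higher in DGCR8 KO and not in DDX6 KO, had an r of 0.909 with each other. Ago2 had negative values with Ago3 (-0.491), Tnrc6b (-0.414) and Tnrc6a (-0.304) and positive ones with Tnrc6c (0.556) and Ago1 (0.492). Of 8341 eligible genes, those most like Tnrc6a were Ccdc141 (r = 0.994), Kmt2e and Gadd45a, those most like Tnrc6b were Ncoa1 (0.993), Itga9 and Ep300, and those most like Ago3 were Slc35d2 (0.980), Gprc5a and Aff1. Prom1 (0.992), Trim35 and Hif1an were most like Ago1, and Plekhm1 (0.993), Fam129b and Qtrt1 most like Tnrc6c. Acp6 (0.980), Pcdh19 and Senp1 were most like Ago2.

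Ago3, Ago1 and Ago4 lie side by side on the minus strand of chromosome 4, with 5456 bases between Ago3 and Ago1. In DDX6 KO Ago3 rose while its neighbour Ago1 did not pass, and in DGCR8 KO both rose. The nearest tested gene beyond Ago3 is Adprhl2 and beyond this cluster is Clspn, the gene of the checkpoint protein claspin, and neither passed against WT in either knockout. Of all tested genes, 19.9% rose and 16.5% fell in DGCR8 KO, and 17.9% rose and 16.6% fell in DDX6 KO. Around Ago3, 2 of 10 tested neighbours, other members included, rose and 1 fell in DGCR8 KO, and 1 rose and 1 fell in DDX6 KO. Around Ago1, 1 of 6 rose in DGCR8 KO and 2 in DDX6 KO. Around Ago4, 2 of 6 rose in DGCR8 KO and 1 in DDX6 KO. Within 200 kb of Tnrc6a, 1 of 4 rose and 1 fell in DGCR8 KO, and 0 rose and 2 fell in DDX6 KO. The nearest on one side, Rbbp6, did not pass in either. Slc5a11, an inositol transporter gene that starts 19517 bases downstream of Tnrc6a, rose by 0.81 (SE 0.25, limma adjusted p = 0.0158) in DGCR8 KO and fell by 1.99 (SE 0.36, adjusted p = 4.2e-04) in DDX6 KO, opposite to Tnrc6a in the latter. Near Tnrc6b, 2 of 3 rose in DGCR8 KO and 0 passed in DDX6 KO. Of these Adsl, an enzyme gene of purine synthesis, was nearest, with 0.37 (SE 0.13, adjusted p = 0.0343) and 0.04 (SE 0.13). Near Ago2, which overlaps Chrac1 on the other strand, 0 of 3 passed by limma in either knockout, and near Tnrc6c, where Tmc6 was nearest, 1 of 4 fell in DGCR8 KO and 1 rose in DDX6 KO. Median log2 changes over the members' chromosomes lay between -0.062 and 0.016.

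The rest of the pathway gave context for the members. The 6 lists held 46 genes besides Dgcr8 and Ddx6, of which 44 were tested. In DGCR8 KO 11 rose and 9 fell, where 19.9% and 16.5% of all genes did, with a median log2 change of 0.078 against 0.004 over all genes. In DDX6 KO 9 rose and 13 fell, where 17.9% and 16.6% of all genes did, with a median of -0.022 against 0.024. The genes passing in either direction, 20 in DGCR8 KO and 22 in DDX6 KO, came to 11 and 13 without WT replicate 3 and to 5 and 2 under spike-in scaling.

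Of the 8 effectors bound by TNRC6 proteins, 0 rose and 4 fell in DGCR8 KO, and 0 rose and 5 fell in DDX6 KO, with median log2 changes of -0.31 and -0.36. Pabpc1, the main cytoplasmic poly(A)-binding protein, stood at 4999.6 ± 331 CPM in WT (SD, n = 3). The DGCR8 KO mean was 3226 ± 69.7 CPM (SD, n = 3), a log2 change of -0.63 (SE 0.10, limma adjusted p = 1.1e-04), and the DDX6 KO mean was 2727 ± 433 CPM (SD, n = 4), a change of -0.88 (SE 0.10, adjusted p = 2.59e-06). Cnot1, the scaffold of CCR4-NOT and the subunit that binds DDX6, fell by 0.61 in DGCR8 KO (SE 0.11, adjusted p = 2.05e-04) and by 0.34 in DDX6 KO (SE 0.10, adjusted p = 0.0115), the latter not passing without clone 1 (adjusted p = 0.0953). Pabpc4 fell by 1.09 in DGCR8 KO (adjusted p = 2.22e-04), and Pan3, a subunit of the PAN2-PAN3 deadenylase, fell by 0.60 in DDX6 KO (adjusted p = 0.0122). The Pan3 call was lost without clone 2 (adjusted p = 0.108) and without WT replicate 3 (adjusted p = 0.1). Its change in DGCR8 KO was 0.39 (adjusted p = 0.072), or 0.42 (adjusted p = 0.0393) with the replicate number as a block. The calls of Pabpc1 and Cnot1 were lost under spike-in scaling, with log2 changes from -0.81 to -0.27. Spike-in scaling also ended the Pan3 call in DDX6 KO (-0.52, limma adjusted p = 0.622).

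Of the 14 genes of repression and decay further downstream, 4 rose and 1 fell in DGCR8 KO, and 4 rose and 2 fell, Ddx6 among them, in DDX6 KO. Mov10, an RNA helicase that associates with Argonaute, had a WT mean of 36.4 ± 4.75 CPM (SD, n = 3) and a DGCR8 KO mean of 149 ± 14.1 CPM (SD, n = 3), a rise of 2.05 on the log2 scale (SE 0.14, limma adjusted p = 4.84e-09). In DDX6 KO Mov10 stood at 49.9 ± 3.81 CPM (SD, n = 4), with 0.48 (SE 0.14, adjusted p = 0.0147). The paralogous deadenylase subunits Cnot6 and Cnot6l rose by 1.49 and 1.38 in DGCR8 KO and by 0.35 and 0.79 in DDX6 KO. In the test between the knockouts, Mov10 (1.57, SE 0.12), Cnot6 (1.15, SE 0.09) and Cnot6l (0.59, SE 0.13) were each higher in DGCR8 KO, with adjusted p-values of 1.49e-08, 3.12e-08 and 0.00163. The DDX6 KO calls of Mov10 and Cnot6 were lost without WT replicate 3 (adjusted p = 0.0751 and 0.0575), without WT replicate 2 for Mov10 (adjusted p = 0.0627), and when either clone 2 (Mov10, adjusted p = 0.0892) or clone 1 (Cnot6, adjusted p = 0.0862) was left out. Spike-in scaling also ended the DDX6 KO calls of Mov10 (0.53, limma adjusted p = 0.597), Cnot6 (0.42, adjusted p = 0.709) and Cnot6l (0.83, adjusted p = 0.252).

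Of the 8 tested genes that load Argonaute or assist loading, 2 rose and 2 fell in DGCR8 KO and 1 rose and 3 fell in DDX6 KO, and all their log2 changes lay between -0.50 and 0.52. Of the 10 genes known to regulate Argonaute proteins, 3 rose and 1 fell in DGCR8 KO and 2 rose and 2 fell in DDX6 KO. Ankrd52, a subunit of the phosphatase that acts on Argonaute 2, rose by 2.00 in DGCR8 KO (SE 0.41, adjusted p = 8.5e-04) from a WT mean of 3.85 ± 2.65 CPM (SD, n = 3), where the libraries held 3, 10 and 30 counts. Without WT replicate 1 the change was 1.61 and without WT replicate 3 it was 2.63, both passing. In DDX6 KO its change was 0.69 (adjusted p = 0.229), or 0.999 (adjusted p = 0.048) with the replicate number as a block, and this log2 change ran from 0.31 without WT replicate 1 to 1.33 without WT replicate 3. Limd1 and Wtip, LIM-domain proteins of the same family, moved apart in DDX6 KO, where Limd1 rose by 1.136 (SE 0.23, adjusted p = 9.98e-04) and Wtip fell by 0.72 (SE 0.11, adjusted p = 9.06e-05). P4ha1, a subunit of the prolyl hydroxylase reported to modify Argonaute 2, rose by 0.67 in DGCR8 KO (adjusted p = 0.0077) and fell by 0.56 in DDX6 KO (adjusted p = 0.0294). The first call was lost without WT replicate 3 (adjusted p = 0.0798), and the other without WT replicate 1 or 2, any DDX6 KO library but the first of clone 2, or clone 1 as a whole (adjusted p from 0.0566 to 0.236). Spike-in scaling ended the P4ha1 calls in DGCR8 KO (0.48, limma adjusted p = 0.603) and in DDX6 KO (-0.53, adjusted p = 0.588).

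Of the 4 genes of miRNA biogenesis, 1 rose and 2 fell in DGCR8 KO, Dgcr8 itself among the latter, and 0 rose and 2 fell in DDX6 KO. Xpo5, which exports pre-miRNAs from the nucleus, fell by 0.76 in DDX6 KO (SE 0.14, limma adjusted p = 6.07e-04). Under spike-in scaling the Xpo5 call was lost (-0.68, limma adjusted p = 0.415). The PIWI genes, germline relatives of the Argonautes, were low in WT. Piwil2 had 7.68, 13.6 and 8.92 CPM in WT, 19.3, 21.7 and 17.1 in DGCR8 KO and 50.5, 58.8, 53.5 and 42.3 in DDX6 KO. The groups did not overlap. The log2 changes were 0.97 (SE 0.26, limma adjusted p = 0.00652, lost without WT replicate 3) in DGCR8 KO and 2.34 (SE 0.22, adjusted p = 6.47e-07) in DDX6 KO. Spike-in scaling also ended the DGCR8 KO call of Piwil2 (0.80, limma adjusted p = 0.377). Piwil1 had 3, 7 and 8 counts in WT and 22 to 31 counts in DDX6 KO, a log2 change of 2.09 (SE 0.48, adjusted p = 0.00273), and Piwil4 was not tested. The range of Piwil2 in DDX6 KO thus held that of Ago3 in the same cells.

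**Figure D5:**
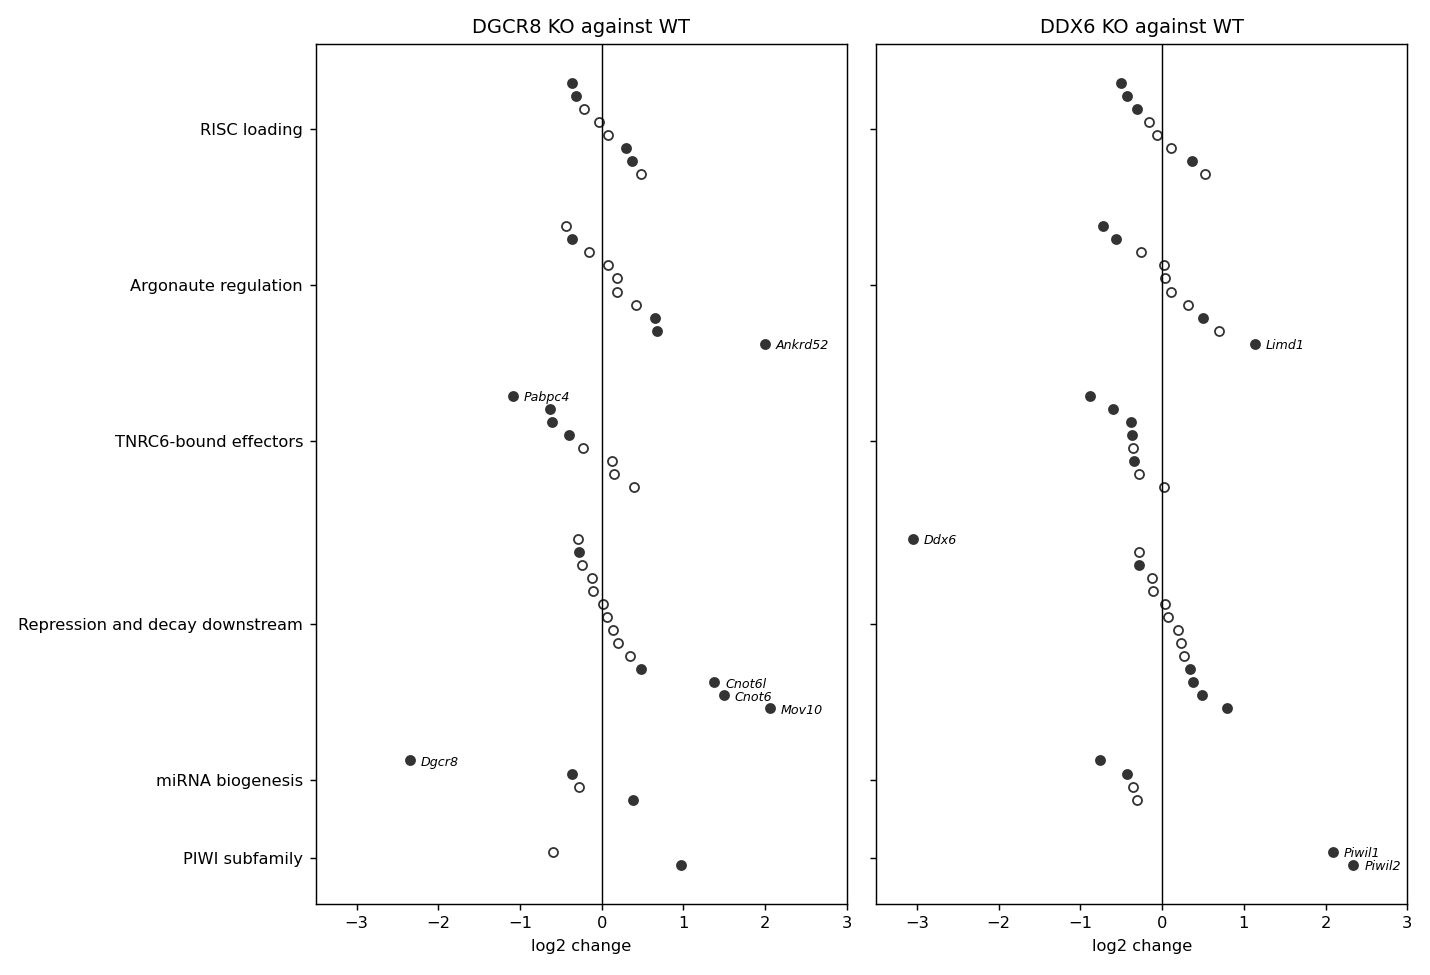
Log2 change of the tested genes of 6 pathway lists in DGCR8 KO (left) and DDX6 KO (right) against WT, 1 point a gene, filled where the adjusted p-value was under 0.05; genes that passed with a change beyond 1 are named. None of the 8 TNRC6-bound effectors lies to the right as a filled point, and Mov10 (2.05) and Piwil2 (2.34) are among the genes farthest to the right.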

How the data were processed

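QuantSeq 3′ FWD libraries were sequenced by the authors with single-end reads, trimmed with cutadapt 1.14, aligned to mm10 with STAR 2.5.3a keeping unique alignments, and counted by strand with featureCounts 1.5.3 (Gencode vM14 basic, no rRNA). The deposited values are raw counts per gene and library. In the later Gencode M21 basic annotation, bases shared with another gene on the same strand make up 143 of the 8183 exon bases of Tnrc6a. For Tnrc6b they make up 82 of 17332. Overlaps in vM14, which was used for counting, were not examined.

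Spike-in counts were set apart. Of 24468 genes with a count, the 11683 that reached 3 CPM in 3 libraries or more were tested. Counts were TMM-scaled (edgeR 4.0.16) and fitted in limma 3.58.1 (R 4.3.3) with voom weights, a choice made here, all 10 libraries in 1 model, two-sided, with Benjamini-Hochberg adjustment over all genes tested and a threshold of 0.05. A second fit had a group for each clone. DESeq2 1.42.0, edgeR's quasi-likelihood test, other scalings and filters, the replicate number as a block and left-out libraries were alternatives.

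Deviations of WT and DGCR8 KO libraries from their group means correlated at 0.112 to 0.236 for the same replicate number. These were taken as paired, from the data alone. Unlike numbers gave -0.219 to -0.018 between WT and DGCR8 KO, but up to 0.156 in pairs with DDX6 KO. Deviations from a mean cancel within a group, so positive values for like numbers push those for unlike numbers negative. The contrast with unlike numbers therefore adds little. The p-values reported come from fits without the block unless stated. No call of a member changed under the block in the 3 contrasts between genotypes, and the clone contrasts were not refitted with it. Gene positions come from the count table, 3′ UTRs from Gencode M21 (GRCm38), and miRNAs from RefSeq, where 12 of 12 matched. Members and lists were chosen with earlier results of these data known. All members were named. Pathway genes were named with an adjusted p under 0.05 and a log2 change beyond 0.5 in either knockout, at most 4 a list; neighbours if the nearest tested gene on a side within 200 kb; genes most alike if among the 3 with the highest Pearson r over the 10 libraries, at a mean of at least 10 CPM and without predicted genes, unnamed clones and pseudogenes. The floor was 3 counts.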

Additional observations from a re-analysis of the deposited data

Results flagged for a closer look

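The effects of the 2 knockouts differed in 4 members, by the limma test of DGCR8 KO against DDX6 KO, with the same WT libraries behind both effects. Ago1 was higher in DGCR8 KO by 1.35 on the log2 scale (adjusted p = 7.01e-08), higher in all 3 libraries than in any of the 4 DDX6 KO libraries. Tnrc6c was higher by 1.09 (adjusted p = 3.5e-06), Tnrc6a by 0.47 (adjusted p = 6.23e-04) and Ago2 by 0.39 (adjusted p = 0.00325), each also without overlap between the libraries. The absence of overlap describes the same values as the test and adds nothing independent to it. Over 23 alternatives the adjusted p ran from 3.45e-21 to 0.0318 for Ago1, from 2.15e-11 to 0.124 for Tnrc6c, from 4.3e-05 to 0.764 for Tnrc6a and from 4.3e-04 to 0.856 for Ago2. No member had a library that stood apart within the DDX6 KO group by Dixon's test, and groups of 3 were not tested.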

How the results depend on the processing

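Of the members, 5 passed in DGCR8 KO, 4 in DDX6 KO and 4 between the knockouts. Spike-in scaling gave 2, 2 and 1, a log2 change beyond 1 gave 3, 2 and 2, and leaving out a library gave 5 to 5, 4 to 4 and 4 to 5; the other alternative tests, filters and scalings stayed within 1.5 times of the counts reported. In each clone against WT 4 members passed, and with a library left out, an alternative added after seeing the data, 2 to 5 in clone 1 and 2 to 4 in clone 2. The other pathway genes passing numbered 20 in DGCR8 KO and 22 in DDX6 KO, 5 and 2 with spike-in scaling, 5 and 3 with a log2 change beyond 1, and 11 to 20 and 13 to 23 with a library left out. The replicate number as a block gave 5, 4 and 4 members and 23 and 23 pathway genes; besides Pan3 and Ankrd52 it changed the call of Pabpc4 in DDX6 KO (-0.38, limma adjusted p = 0.0168) and of no other named gene in the contrasts between genotypes, to which the block was applied. DDX6 KO libraries and those with the same number elsewhere correlated at -0.069 to 0.124. The pairs of number 1 lay at 0.107 to 0.124 and those of number 2 at -0.069 to 0.097. Whether these libraries share more than a number is not stated and was not tested.

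Log2 changes that turned sign had not passed. For Ago1, total counts gave 0.0441 in DDX6 KO, 0.0587 in clone 1 and 0.0301 in clone 2. With a library left out, Ago1 ran from -0.1436 to 0.0132 in DDX6 KO, from -0.1061 to 0.0107 in clone 1, from -0.3097 to 0.1416 in clone 2 and from -0.2602 to 0.1936 between the clones. Ago2 ran from -0.1272 to 0.0061 in DGCR8 KO and from -0.1611 to 0.0211 between the clones, Ago3 from -0.0484 to 0.0116 between the knockouts, and Piwil1 from -1.1612 to 0.2969 in DGCR8 KO. Spike-in scaling gave -0.0135 for Tnrc6b between the knockouts, and leaving out DGCR8 KO replicate 2 brought that difference past the threshold (0.3092, limma adjusted p = 0.0433). The cause was not tested.

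Of the genes passing, 54.7% were higher in DGCR8 KO, 51.8% in DDX6 KO and 52.3% in DGCR8 KO against DDX6 KO. Upper-quartile scaling gave 44.3% for DGCR8 KO, total counts gave 67.5% and 38.8% for the others and spike-in scaling 70.3% and 32.4%. Depth limits Ago4, Piwil1 and Ankrd52.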
